A study of Mus musculus with 6 samples.

Results

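Complement is a set of plasma proteins, membrane regulators and receptors, and 36 of its genes were examined in primary mouse hepatocytes treated with tumour necrosis factor (TNF) or left without it. The genes were chosen by name as components, regulators or receptors of complement. Of the 36, 35 had a row in the table of 19764 genes, 29 held enough reads to be tested among 12276 genes, and 6 did not (C1qa, C1qb, C1qc, C7, C3ar1 and C5ar1). Cfd was not analysed here. Hepatocytes of Bl6/N mice were plated at 400000 cells per well and kept for 16 h in starvation medium with 5 mM glucose. For the next 8 h both groups received corticosterone at 1 µM, which activates the glucocorticoid receptor, together with WY-14643 at 10 µM, which activates the fatty acid sensor PPARα. The Control group received vehicle at the same time, and the TNF group received 1 ng/ml TNF. Each group had 3 libraries of polyA RNA, numbered 1 to 3, so the comparison asks what TNF changed in cells that all carried the starvation medium and both ligands. The labels do not say whether the 3 libraries of a group came from separate animals or cultures, so p-values measure only the spread between these libraries, which may be technical.

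Complement proteins act as a chain of proteases that cut one another. The classical pathway starts when C1q binds antibody or a surface and activates C1r and C1s, and the lectin pathway starts when mannose-binding lectins bind sugars and activate the MASP proteases. Both cut C4 and C2 into an enzyme that cleaves C3, the alternative pathway builds such an enzyme from C3 and factor B, and the terminal components C5 to C9 form a pore in the target membrane. The liver is the main source of most of the soluble components, whereas C1q, properdin and C7 are made largely by other cells. C3, factor B and several others are known as acute phase proteins, whose synthesis in the liver changes in inflammation.

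Library totals lay between 17612060 and 25114289 reads, and 3 reads, the limit that a count of 0 allows, stood for 0.124 to 0.166 CPM, the read count scaled to the size of its library. This limit covers counting error only, since PCR reads without molecular identifiers are not independent molecules. Libraries with the same number deviated together from their group means, with correlations of 0.784, 0.790 and 0.793 over genes. Between other numbers the correlations were -0.473 to -0.336. Deviations within a group of 3 sum to 0, so positive values within a number force the others to be negative on balance. Control 1 with TNF 1, Control 2 with TNF 2 and Control 3 with TNF 3 are called pairs. Hepatocyte markers were abundant, with a sum of 29007 to 46894 CPM in Control and 28479 to 44308 CPM in TNF. Of 12 macrophage markers only Cd68 passed the filter on reads, and it had 179.7 ± 45.4 CPM (SD, n = 3) in Control and 179 ± 46.9 CPM (n = 3) in TNF. Clec4f and Timd4, markers of resident liver macrophages, had 1 read each over the 6 libraries, and the neutrophil markers Ly6g, Retnlg and Mpo had 0. Of 8 endothelial markers 7 passed the filter, with a sum of 85.1 to 161 CPM in Control and 80.1 to 153 CPM in TNF. Stellate, fibroblast and mesothelial markers summed to 19.2 to 68.5 CPM in Control and 20.2 to 46.7 CPM in TNF. Values are CPM or differences of log2(CPM + 1), where a positive difference is higher in TNF. In these bulk libraries, fewer cells of a type and less RNA per cell cannot be told apart.

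C3 and Cfb rose with TNF, and C1rl, Masp1, Masp2, C4b, C6, C4bp, Cfi, Cpn1 and Cpn2 fell, where rose and fell mean an adjusted p under 0.05 in the limma fit that takes the pair as a block. The differences were small: the 29 tested genes spanned -0.66 (Cpn2) to 0.20 (C3) on the log2 scale, and only Cpn2 differed by 1.5-fold or more. That fit called 11 of the 29 genes (37.9%), against 20.6% of all 12276 genes tested. It called 2 higher (6.90%, against 9.39% of all genes) and 9 lower (31.0%, against 11.2% of all genes). Of 7 hepatocyte markers tested, it called 0 higher and 4 lower, so a large share of falls was not seen in complement genes alone. The median log2 difference was -0.07 over the 29 genes and -0.01 over all genes tested. In the limma fit without the pairs none of the 29 was called, against 0.432% of all genes (53 of 12276). At an unadjusted p under 0.05 that fit gave 5 of them, C1rl, Masp2, C4bp, Cpn1 and Cpn2, all lower, and limma-voom on the recovered reads without the pairs also called 0. The calls named below as rose or fell therefore rest on differences within pairs, and their standard errors lean on a prior variance shared between genes.

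Agreement between pairs and overlap between groups were read from the same 29 genes. All 3 pairs had the same sign in 19 genes (65.5%, against 51.2% of all genes), with 16 lower and 3 higher. The Control and TNF libraries did not overlap in 5 genes (17.2%, near the 13.3% of all genes), which were C1rl, Masp2, C4bp, Cpn1 and Cpn2. In 24 genes (82.8%, against 84.0% of all genes) the range over the 3 Control libraries was wider than the TNF difference, a share near the background. The authors' deposited table gave an adjusted p under 0.05 to 11 of the 35 genes with a row, against 15.2% of its 19764 genes, and these were the same 11 genes. Both comparisons used the same 6 libraries, so the match is not independent of the calls here. Summed over the 35 genes, expression was 10277 ± 1522 CPM (SD, n = 3) in Control and 10246 ± 1252 CPM (n = 3) in TNF, close to 1.02% and 1.03% of the CPM of each library on average.

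**Figure D1:**
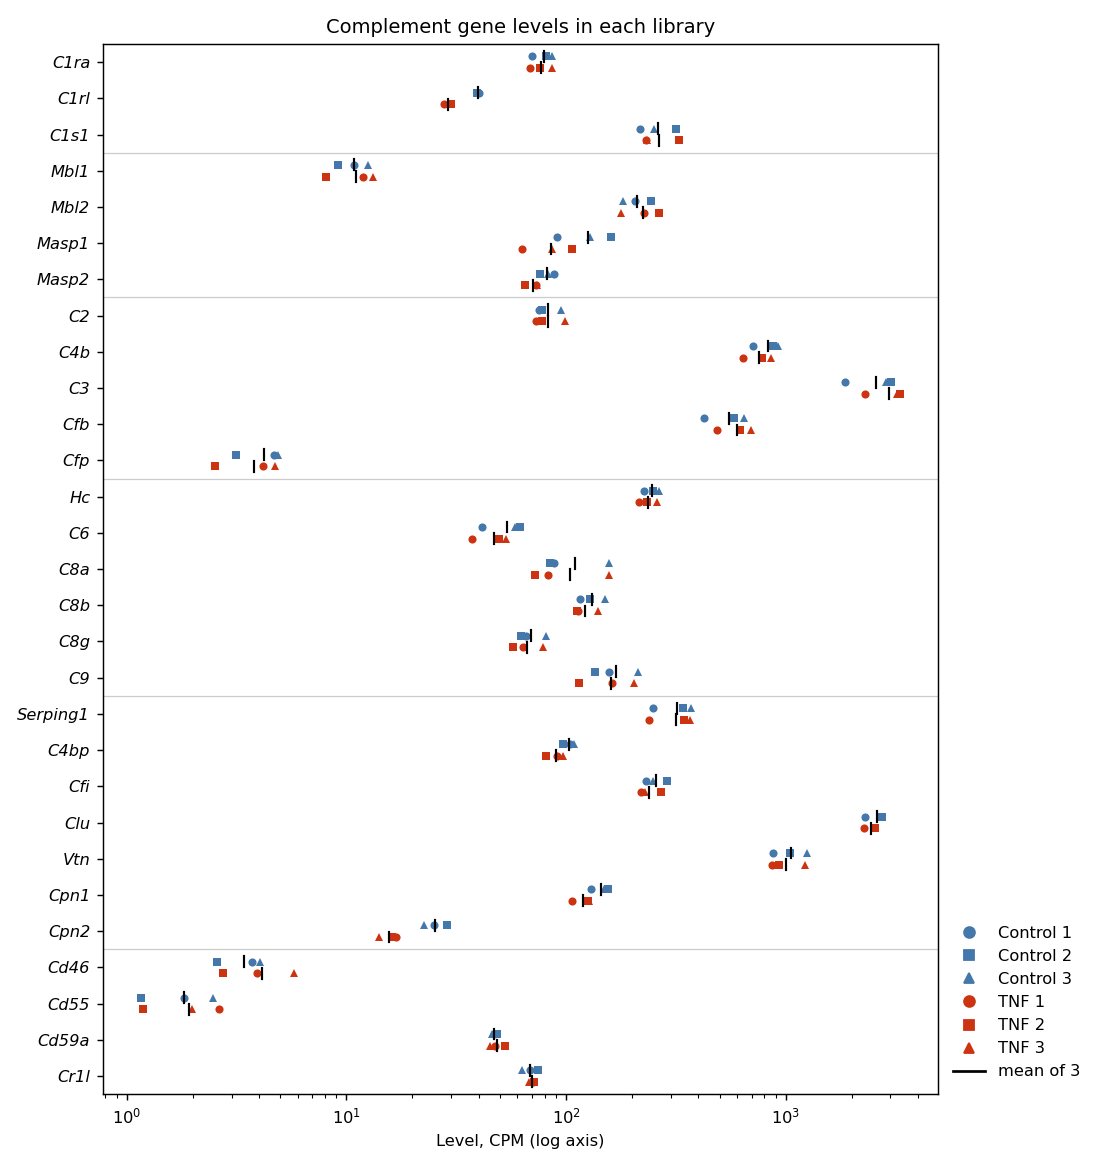
Level of each tested complement gene in every library, in CPM on a log axis, with Control in blue, TNF in red, the marker shape giving the library number and a vertical tick at the mean of 3. Groups overlap in most rows, and C1rl, Masp2, C4bp, Cpn1 and Cpn2 are the 5 rows where every TNF library lies below every Control library. That is 17.2% of the tested complement genes, near the 13.3% of all genes tested whose groups do not overlap.

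**Figure D2:**
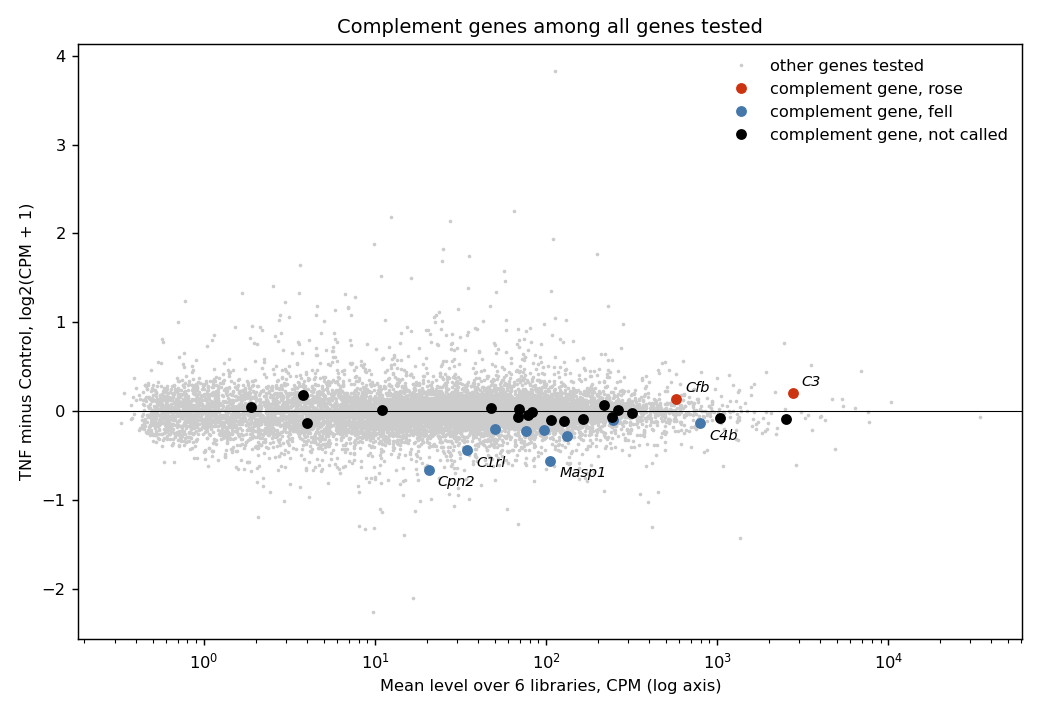
Mean CPM over 6 libraries (log axis) against the TNF minus Control difference on the log2(CPM + 1) scale for the 12276 genes tested, with the 29 complement genes as large points. The complement genes lie between -0.66 and 0.20, inside the spread of the other genes at the same level.

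The windows just before the transcription start are shown for the 4 called genes in which a motif match was found. They are the 250 bases before the start in RefSeq's table for GRCm38.p6 (mm10), read 5′ to 3′ on the gene's strand, at chr17:57228137-57228386 on the minus strand for C3, at chr16:30267533-30267782 on the minus strand for Cpn2, at chr15:4726960-4727209 on the plus strand for C6 and at chr4:148602294-148602543 on the plus strand for Masp2. Capitals mark matches on either strand to TTNNGNAAT, a pattern used for C/EBP factors, or to TTCNNNGAA, a pattern used for STAT factors.
C3: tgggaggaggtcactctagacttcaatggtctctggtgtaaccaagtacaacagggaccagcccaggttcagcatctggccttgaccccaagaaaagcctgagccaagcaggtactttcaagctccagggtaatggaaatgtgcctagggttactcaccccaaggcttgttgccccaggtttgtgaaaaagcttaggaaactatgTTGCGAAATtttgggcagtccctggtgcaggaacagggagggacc
Cpn2: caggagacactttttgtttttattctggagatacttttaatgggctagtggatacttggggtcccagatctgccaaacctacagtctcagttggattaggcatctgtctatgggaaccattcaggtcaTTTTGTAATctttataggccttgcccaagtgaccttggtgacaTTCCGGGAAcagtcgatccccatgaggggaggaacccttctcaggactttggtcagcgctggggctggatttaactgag
C6: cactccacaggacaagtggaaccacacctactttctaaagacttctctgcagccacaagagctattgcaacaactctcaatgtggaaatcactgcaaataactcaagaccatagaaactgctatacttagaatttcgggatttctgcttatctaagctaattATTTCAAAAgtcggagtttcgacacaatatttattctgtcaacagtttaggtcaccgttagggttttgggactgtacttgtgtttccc
Masp2: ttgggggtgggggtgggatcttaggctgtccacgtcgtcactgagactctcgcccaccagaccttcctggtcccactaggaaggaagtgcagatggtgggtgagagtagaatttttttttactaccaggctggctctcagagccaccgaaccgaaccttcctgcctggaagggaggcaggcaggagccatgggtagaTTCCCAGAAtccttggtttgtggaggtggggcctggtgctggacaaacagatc
In the C3 window the C/EBP pattern matched once, starting 45 bases before the start, and in the C6 window once, at 88 bases. The Cpn2 window held a C/EBP match at 122 bases and a STAT match at 79 bases, which do not overlap, and the Masp2 window held a STAT match at 53 bases. Windows were matched for 28 of the 36 genes, and those of C1qa, Masp1, C2, C4b, Cfb, Serping1, Cfi and Clu were not used here. These 28 genes had 30 windows. The windows of C1s1 overlap and share a C/EBP match, which is counted in each. The C/EBP pattern was found in 8 of the 30 windows (7 genes), against 10.2% of all 32841 windows of this length, and the STAT pattern in 4, against 7.02%. The NF-κB consensus was found in 1 window, that of C1qc, against 7.25% of all windows. No match to the 3 patterns was found in the windows of C1rl, C4bp and Cpn1, which also fell. The C/EBP pattern also matched in windows of C1ra, C1s1 and C9, which were not called, and of C7, which was not tested. The STAT pattern also matched in the window of C7 and in that of C8a, which was not called. A match is a description of the letters in the window, and binding was not measured.

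Among the genes that start the classical pathway, C1rl fell and the protease genes C1ra and C1s1 were not called. C1rl, which encodes a C1r-like serine protease, had 40.3, 39.5 and 39.8 CPM in Control libraries 1 to 3 and 27.9, 30.0 and 29.3 CPM in TNF. Every TNF library was below every Control library, and the 3 Control libraries lay within 0.03 of one another on the log2 scale. C1rl fell by 0.44 (SE 0.06, limma adjusted p = 5.79e-05 with the pairs and 0.0683 without). C1ra, the C1r protease, had 79.3 ± 8.5 CPM (SD, n = 3) in Control and 77.1 ± 9.12 CPM (n = 3) in TNF, a log2 difference of -0.04 with a 95% interval of -0.13 to 0.05. C1s1, the C1s protease, had 262 ± 50.8 and 264 ± 54.5 CPM (n = 3 each), a difference of 0.01 with an interval of -0.07 to 0.09. These 3 genes lie next to one another on chromosome 6, between bases 124493113 and 124542359 (mm10). The C1q chains, which bind the target, were near the limit of detection, with 6 reads of C1qa, 3 of C1qb and 5 of C1qc over the 6 libraries, so no difference was detectable at this depth.

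In the lectin pathway both MASP proteases fell, and neither lectin was called. Masp1, the protease that starts this pathway, had 90.8, 160 and 128 CPM in Control and 62.9, 107 and 86.6 CPM in TNF. The groups overlapped, because library 1 was low and library 2 high in both, but within the pairs the differences were -0.52, -0.58 and -0.56. Masp1 fell by 0.56 (SE 0.04, limma adjusted p = 1.27e-07 with the pairs), and without the pairs the SE was 0.24 and the adjusted p 0.596. Masp2, the protease that cleaves C4 and C2, had 88.1, 75.8 and 82.7 CPM in Control and 73.1, 64.9 and 73.6 CPM in TNF. All 3 TNF libraries were below the lowest Control library, by a small margin. Masp2 fell by 0.22 (SE 0.04, limma adjusted p = 0.0015 with the pairs and 0.512 without), and a STAT match stands in its window shown above. Masp2 overlaps Tardbp on the other strand by 3099 bases, which were left out of its counted length, and Tardbp moved the other way, by 0.12 (limma adjusted p = 0.0131 with the pairs). The mannose-binding lectins Mbl1 and Mbl2 differed by 0.01 (95% interval -0.19 to 0.21) and 0.07 (-0.01 to 0.15). Mbl2 was at 211 ± 31.7 CPM in Control and Mbl1 at 10.9 ± 1.66 CPM (SD, n = 3 each).

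Among the genes of the convertases, C3 and Cfb rose and C4b fell. C3, the protein on which all 3 pathways converge, had 1860, 3014 and 2866 CPM in Control and 2305, 3323 and 3203 CPM in TNF. The groups overlapped, and library 1 was the lowest of its group in both. Within the pairs C3 was higher by 0.31, 0.14 and 0.16, and it rose by 0.20 (SE 0.04, limma adjusted p = 0.00373 with the pairs and 0.970 without). Cfb, the protease of the alternative pathway convertase, had 423, 582 and 648 CPM in Control and 488, 622 and 697 CPM in TNF. The groups overlapped here too, and library 1 was again the lowest in each. Within the pairs Cfb was higher by 0.21, 0.10 and 0.11, and it rose by 0.14 (SE 0.03, limma adjusted p = 0.00917 with the pairs and 0.987 without). Without pair 1 neither was called: C3 was higher by 0.15 (limma adjusted p = 0.0783 with the remaining pairs) and Cfb by 0.10 (adjusted p = 0.111). Leaving out a pair also lowers the degrees of freedom. With Control library 1 alone left out of the fit without pairs, the differences were -0.02 for C3 and -0.04 for Cfb. That fit kept TNF library 1, the lowest of its group for both genes, without its partner.

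C4b, which supplies the C4b part of the classical and lectin convertase, had 708, 872 and 922 CPM in Control and 640, 779 and 856 CPM in TNF. The groups overlapped, and each TNF library was below the Control library of its pair. C4b fell by 0.14 (SE 0.03, limma adjusted p = 0.00609 with the pairs and 0.956 without). C4a is a near-identical copy of C4b, so reads may be split between them and both values are uncertain. C4a had 14.97, 10.7 and 21.7 CPM in Control and 11.5, 8.58 and 17.0 CPM in TNF, and it fell by 0.33 (adjusted p = 0.0108 with the pairs and 0.939 without). C2, the protease partner of C4b, had 83.0 ± 10.7 CPM in Control and 83.0 ± 13.8 CPM in TNF (SD, n = 3 each), a difference of -0.01 with a 95% interval of -0.09 to 0.08. C4b, Cfb and C2 lie together on chromosome 17 between bases 34728381 and 34882100 (mm10), with 87 bases between Cfb and C2. In this cluster, with the pairs, 1 gene rose, 1 fell and 1 was not called. Cfp, properdin, which stabilises the alternative convertase, had 4.24 ± 0.949 CPM in Control and 3.81 ± 1.15 CPM in TNF (n = 3 each), and its difference was -0.14 with an interval of -0.39 to 0.11.

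**Figure D3:**
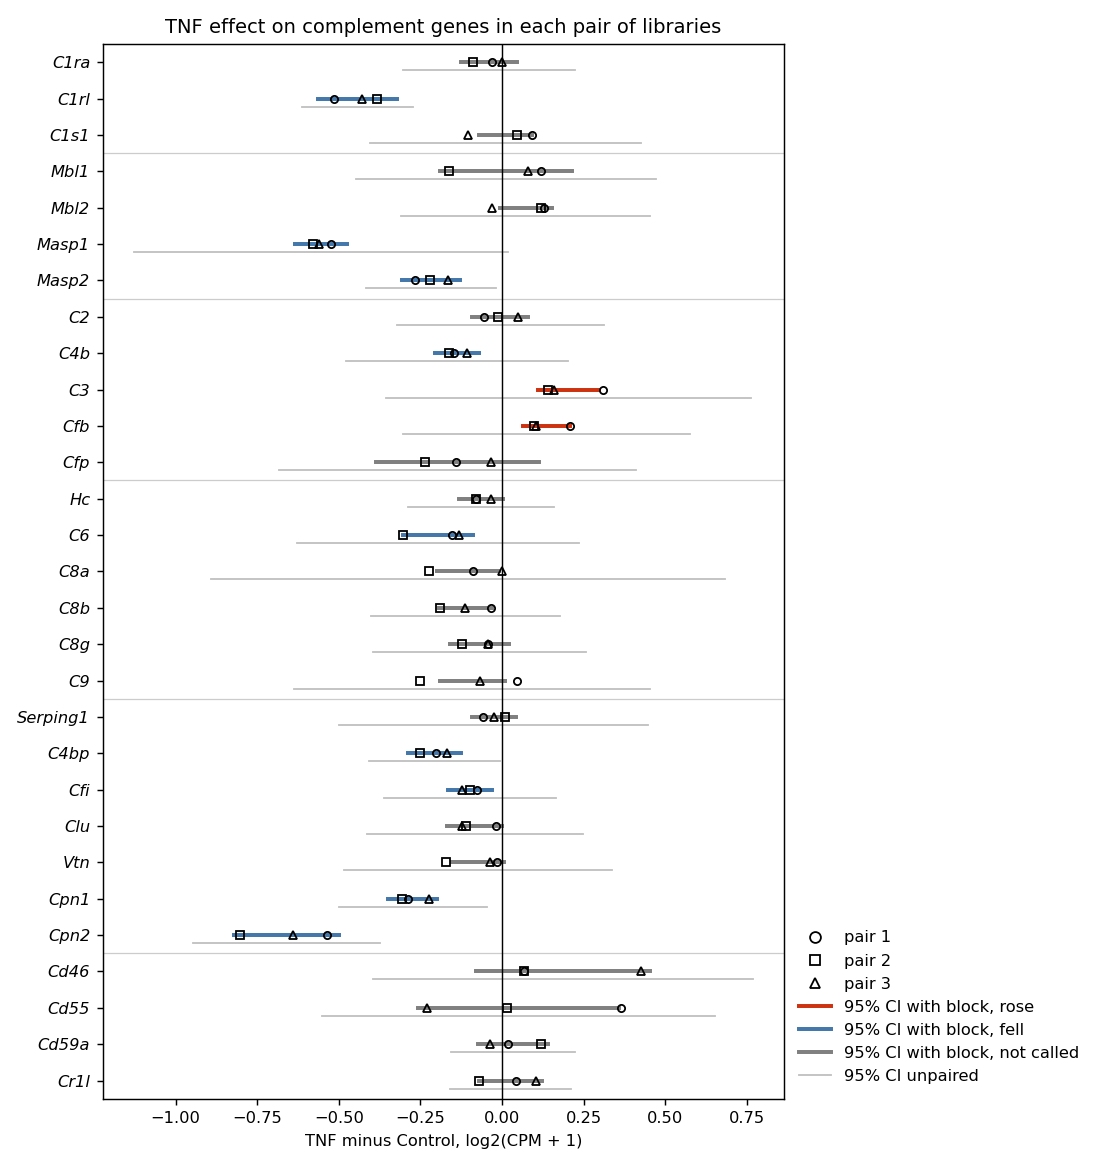
TNF minus Control on the log2(CPM + 1) scale for each of the 29 tested complement genes: open markers give the 3 pairs, thick bars the 95% interval of the fit with the pairs and thin bars that without them, in the order of the roles described here. The Masp1 markers lie close together, between -0.58 and -0.52, while its unpaired interval runs from -1.13 to 0.02.

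Of the terminal components, C6 fell and the others were not called. C6 had 41.5, 61.6 and 58.8 CPM in Control and 37.3, 49.7 and 53.6 CPM in TNF, with overlapping groups and library 1 lowest in each. It fell by 0.20 (SE 0.05, limma adjusted p = 0.0126 with the pairs and 0.949 without). Without pair 2 the C6 difference was -0.14 (adjusted p = 0.143). Hc, the mouse C5 gene, had 247 ± 19.7 CPM in Control and 237 ± 22.9 CPM in TNF (SD, n = 3 each), a difference of -0.06 with a 95% interval of -0.13 to 0.00. C8b, the beta chain of C8, differed by -0.11 (limma adjusted p = 0.0543 with the pairs). It was lower in all 3 pairs, and without pair 1 the adjusted p was 0.0149. C8a, the alpha chain, had 87.7, 84.2 and 157 CPM in Control and 82.4, 72.0 and 157 CPM in TNF, and it had the widest range over the Control libraries of all 29 genes, 0.89 on the log2 scale. Its difference of -0.10 had an adjusted p of 0.116 with the pairs and of 0.0415 without pair 3. C9, which polymerises into the pore, differed by -0.09 (adjusted p = 0.201), and without pair 1 by -0.16 (adjusted p = 0.00723). C8g, the gamma chain, differed by -0.07 with an interval of -0.16 to 0.02, and 942 of its bases, shared with Fbxw5 on the other strand, were uncounted. C7 had 7 reads over the 6 libraries.

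The soluble regulators held the gene with the largest difference, Cpn2, and 4 of their 7 members fell with the pairs, where 11.2% of all genes tested did, and 0 were called without them. Carboxypeptidase N removes the terminal arginine of the anaphylatoxins C3a and C5a and so limits their activity, and its regulatory subunit is encoded by Cpn2 and its catalytic subunit by Cpn1. Cpn2 had 25.0, 28.8 and 22.5 CPM in Control and 16.9, 16.1 and 14.1 CPM in TNF. All 3 TNF libraries were well below the lowest Control library, and the pairs differed by -0.54, -0.80 and -0.64. Cpn2 fell by 0.66 (SE 0.08, limma adjusted p = 2.26e-05 with the pairs and 0.0919 without), which is 0.633 of the Control level on the CPM + 1 scale. Cpn1 had 131, 155 and 148 CPM in Control and 107, 125 and 127 CPM in TNF. Here too the groups did not overlap, and Cpn1 fell by 0.27 (SE 0.04, limma adjusted p = 6.55e-05 with the pairs and 0.443 without). The 2 subunit genes lie on different chromosomes, Cpn1 on chromosome 19 from base 43956308 to 43986520 and Cpn2 on chromosome 16 from base 30256379 to 30267532 (mm10).

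C4bp, the C4b-binding protein that speeds the decay of the C4b convertase, had 105, 96.9 and 109 CPM in Control and 91.0, 81.3 and 96.9 CPM in TNF. The groups did not overlap, although the lowest Control library and the highest TNF library were nearly level. C4bp fell by 0.21 (SE 0.04, limma adjusted p = 0.00118 with the pairs and 0.545 without). Cfi, factor I, the protease that inactivates C3b and C4b, had 231, 288 and 248 CPM in Control and 218, 270 and 228 CPM in TNF. Its groups overlapped, and it fell by 0.10 (SE 0.03, limma adjusted p = 0.0376 with the pairs and 0.964 without). The Cfi call held in 4 of 10 other settings of the fit with the pairs, with an adjusted p of up to 0.166. Clu, clusterin, a chaperone that blocks pore assembly, had 2295, 2752 and 2753 CPM in Control and 2267, 2549 and 2527 CPM in TNF, a difference of -0.08 with a 95% interval of -0.17 to 0.00. Vtn, vitronectin, which also blocks pore assembly, had 879, 1046 and 1253 CPM in Control and 870, 929 and 1221 CPM in TNF, a difference of -0.07 with an interval of -0.15 to 0.01. Serping1, the inhibitor of C1r, C1s and the MASPs, had 248, 343 and 372 CPM in Control and 238, 345 and 365 CPM in TNF. Its difference of -0.03 had an interval of -0.09 to 0.04, and library 1 was the lowest in both groups.

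**Figure D4:**
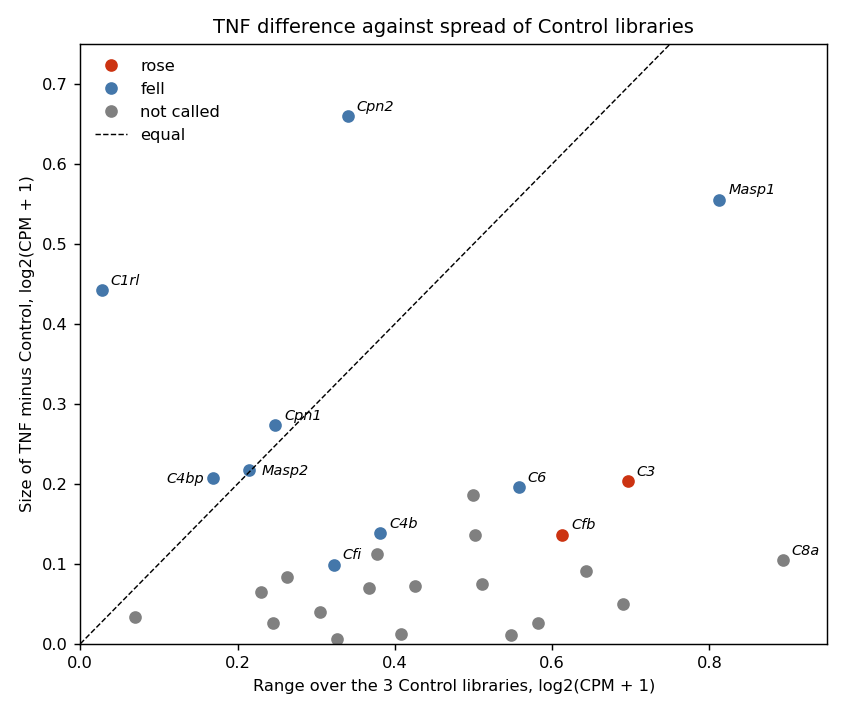
Range over the 3 Control libraries against the size of the TNF difference, both on the log2(CPM + 1) scale, for the 29 tested complement genes, with the dashed line where they are equal. C1rl, Masp2, C4bp, Cpn1 and Cpn2 lie above the line and the other 24 below it, Masp1, C3 and Cfb among them. The 24 are 82.8% of the tested complement genes, against 84.0% of all genes tested.

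None of the 4 membrane regulators, which protect the body's own cells, was called. Cd59a, which blocks the pore, had 47.2 ± 1.21 CPM in Control and 48.4 ± 3.97 CPM in TNF (SD, n = 3 each), a difference of 0.03 with a 95% interval of -0.07 to 0.14. Cr1l, the rodent regulator Crry, had 68.9 ± 5.91 and 70.0 ± 1.89 CPM (n = 3 each), a difference of 0.03 with an interval of -0.07 to 0.12. Cd46 and Cd55, a cofactor for factor I and a decay accelerator, had 3.44 ± 0.773 and 1.82 ± 0.662 CPM in Control (n = 3 each). Their intervals were wide, -0.08 to 0.45 for Cd46 and -0.26 to 0.36 for Cd55, from 51 to 117 and 22 to 55 reads per library. The anaphylatoxin receptors C3ar1 and C5ar1 had 4 and 14 reads over the 6 libraries, so no difference was detectable at this depth.

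Relative to transcript length, Clu stood highest, with 1436 CPM per kilobase of annotated exon in Control, followed by Vtn with 607, C3 with 502, Cfb with 200, Mbl2 with 194, Serping1 with 160 and C4b with 155. The counted lengths took in introns as well, and 31 of the 35 genes were counted over their whole span. Per kilobase counted, the order began with Vtn at 330, then Clu at 199, C3 at 107 and Cfb at 90.7. Clu and C3 together gave 50.4% of the summed CPM of the complement genes in Control and 52.6% in TNF.

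Beyond the listed genes, 25 further complement genes were examined, of which 23 had a row and 12 were tested. Of these 12, 0 rose and 2 fell with the pairs, C4a and Cfhr2, numbers near the shares of all genes tested (9.39% higher and 11.2% lower), and 0 were called without the pairs. Cfhr2 had 92.8, 130 and 115 CPM in Control and 86.2, 110 and 101 CPM in TNF, and it fell by 0.17 (limma adjusted p = 0.00546 with the pairs and 0.919 without).

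Of 18 genes of cytokine signalling and transcription factors known to act on liver complement genes, 6 rose and 4 fell with the pairs. The shares of all genes tested were 9.39% and 11.2%. This list was chosen with earlier results of these data known, so nothing particular to it is read from these counts. Those that rose were the interferon-gamma receptor chains Ifngr2 (0.98) and Ifngr1 (0.40), the NF-κB subunits Nfkb1 (0.69) and Rela (0.24), the interferon-responsive factor Irf1 (0.38) and the second TNF receptor Tnfrsf1b (0.28). Those that fell were the bile acid receptor gene Nr1h4 (-0.53), Cebpd of the C/EBP family (-0.49), the hepatocyte factor Hnf4a (-0.43) and the interleukin-6 receptor Il6ra (-0.27). Without the pairs, limma called 2 of the 18, Ifngr2 (adjusted p = 0.00759) and Nfkb1 (adjusted p = 0.0111). Il6ra had 45.7, 49.4 and 49.8 CPM in Control and 38.1, 39.9 and 41.9 CPM in TNF, with no overlap. Hnf4a is also among the hepatocyte markers, of which 0 rose and 4 of 7 fell with the pairs (Ttr, Apoa1, Fgb and Hnf4a). Of the other markers tested, 1 of 7 endothelial genes fell (Stab2), 1 of 5 stellate, fibroblast and mesothelial genes fell (Reln), 1 of 3 cholangiocyte genes rose (Sox9) and Cd68 was not called. The part of these cell types in the complement differences was not tested.

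The 11 called members had 22 genes next to them, of which 18 were tested. With the pairs 2 of the 18 rose and 4 fell, against 9.39% and 11.2% of all genes tested, so nothing particular to the neighbours is read from these counts. Tnfsf14, 9785 bases from C3, fell by 0.79 (limma adjusted p = 0.00057) where C3 rose, and Gar1, 5342 bases from Cfi, rose by 0.14 (adjusted p = 0.0486) where Cfi fell. Beside the falling genes C4bp and Cpn1, Pfkfb2 fell by 0.44, Dnmbp by 0.39 and Cyp2c44 by 0.16. Nelfe, 1 base from Cfb, differed by -0.14 (adjusted p = 0.0544), and the strand setting of the counting is not given in the sources used here.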

How the data were processed

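RNA of 6 libraries (3 Control, 3 TNF) was sequenced from both ends. Per the submitters' processing notes, STAR 2.6.1a and mm10 were used for alignment. Beyond the counted length of each gene, how reads were counted, and with which annotation, is not given in the sources used here. Per library, the values as deposited were log2 CPM with a floor added by the authors (-3.35, or 0.0978 CPM). From the authors' own comparison, the deposited table held for each gene a log2 change, a score (a likelihood ratio) and raw and adjusted p-values, from a model that no source used here gives. Subtracting the floor on the linear scale gave whole reads for 118584 of 118584 values within 1e-06 reads. The authors' scaling was kept.

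Genes with at least 10 reads, scaled to the median total, in 3 libraries and 15 reads in all were tested (12276; 7488 were not). Log2(CPM + 1) was fitted over all genes with limma 3.58.1 in R 4.3.3, with a trended prior variance, two-sided, Benjamini-Hochberg adjusted, threshold 0.05. The planned fit had no pairs, and a count test planned for counts was not used because the unit is log2. Same-numbered libraries correlated above 0.1 in all 3 pairs, so the fit with the pair as a block stands beside it. No library was a copy of another, since read counts of any 2 differed beyond sampling noise (chi-square of 14.96 to 70.9 per degree of freedom). Members, described by role, and all lists (other complement genes, cytokine signalling and factors, hepatocyte, macrophage, neutrophil, endothelial, stellate with fibroblast and mesothelial, and cholangiocyte markers) were chosen with earlier results of these data known, although the rule for members uses names and no measured value. The 6 neutrophil markers were not tested for lack of reads. Full values are given for called members and the 6 with the most CPM. Alternatives were 2 other scalings, pseudocounts of 0.1 and 5, no filter, a filter of 1 CPM, limma-voom and leaving out each library or pair. The fit was tested on simulated data with planted changes all larger than the complement differences. That test therefore does not bear on calls of this size. The simulation also built in a shared effect of each pair, so it cannot show whether the pairing is real.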

Additional observations from a re-analysis of the deposited data

How the results depend on the processing

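In the fit without pairs, 53 of all genes were called, 31 without the filter on reads, and 9 to 30 with 1 library left out. With the replicate block the count was 2527 of all genes, and the count lower in TNF was 1374, or 911 without the filter. For the complement genes it was 11 with the block (2 higher and 9 lower) against 0 without it. With the block, 1 complement gene was called higher without the filter (Cfb, with C3 at an adjusted p of 0.0543) and 0 without pair 1. C1rl, Masp1, Masp2, C4b, C4bp, Cpn1 and Cpn2 were called in all 10 other settings of the blocked fit, Cfb and C6 in 9, C3 in 8 and Cfi in 4. Without pair 3 Mbl2 (higher) and C8a (lower) were called as well, and without pair 1 C8b and C9 (lower). Signs reversed without Control library 1 for C3 and Cfb in the fit without pairs, which kept TNF library 1 without its partner. With 1 library left out of that fit, the differences ran from -0.0165 to 0.37 for C3 and from -0.0425 to 0.28 for Cfb. Genes that were not called could reverse there too, as C8a did without Control library 3. With a pair left out of the blocked fit, signs also reversed for 6 genes that were not called: C1s1 (-0.0296 to 0.0688), Mbl1 (-0.042 to 0.0992), C2 (-0.0335 to 0.0191), Cd55 (-0.107 to 0.189), Cd59a (-0.0096 to 0.0679) and Cr1l (-0.0132 to 0.0744). C2 was also at 0.0043 with median-of-ratios scaling and 0.00089 with library totals. Leaving out samples also lowers the degrees of freedom, and other causes were not tested. Depth limits C1qa, C1qb, C1qc, C7, C3ar1 and C5ar1, which had 3 to 14 reads in all.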
